A study of Mus musculus with 8 samples.

Results

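The nuclear genes of the respiratory chain and ATP synthase were described in mouse embryonic fibroblasts that exchanged one pyruvate kinase isoform for the other. They were taken as all genes with a single platform symbol that starts with Nduf, Uqcr, Atp5, or Cox followed by a digit from 4 to 8, together with Cyc1 and Cycs. These were 87 of the 19938 genes measured: 41 for complex I, 9 for complex III, 1 for cytochrome c, 19 for complex IV and 17 for complex V. A gene with several probe sets was represented by the one with the highest mean over the 8 samples. Ndufa4 and Ndufa4l2 were counted with complex IV, where their products are now placed, despite their names.

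RNA was hybridised to Affymetrix arrays, 1 per sample, and each value is a log2 expression value. The 4 groups of 2 samples were line A (MEF10) with tamoxifen, expressing PKM1, line A without tamoxifen, expressing PKM2, line B (MEF16) with tamoxifen, expressing PKM1, and line B without tamoxifen, expressing PKM2. All were labelled as embryonic fibroblasts, although the description and extraction fields of the labels name mammary tumours. The labels give no alleles, embryo ages, dose or duration, and all samples with PKM1 had received tamoxifen and none with PKM2 had, so the drug and the isoform cannot be told apart. The labels do not say whether both samples of a group came from separate cultures, and the p-values rest on the spread between them, which may be technical. Over both lines the p-values also take in how far the changes of the lines differ. In all comparisons limma also draws on the spread of all genes.

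Complex I passes electrons from NADH to coenzyme Q, complex III passes them on to cytochrome c, and complex IV passes them to oxygen. The protons pumped on the way drive complex V, the ATP synthase, which has a catalytic head called F1 and a membrane part called Fo joined by stalks. Complexes I, III, IV and V are built from subunits of both nuclear and mitochondrial genes, and the nuclear factors NRF1, GABP (of the ETS family) and YY1 are known regulators of many of the nuclear ones. Pyruvate kinase makes the pyruvate that can feed the chain through the citric acid cycle. PKM1 and PKM2 are splice products of one gene.

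Promoter windows of 300 bases, mostly upstream of the gene's start and ending within it, were taken from RefSeq (GRCm38.p6) and were found for 71 of the 87 genes. The windows were searched on both strands for short core motifs, counting a gene once per motif whether or not motifs overlapped. The NRF1 core GCATGCGC was present in 12 of 71 windows (16.9%), against 3.05% of the 27025 genes with a window. The windows of the 71 genes were richer in G and C, with a median of 58.3%, against 52.8% over all windows, and the part of base composition in these shares was not tested. The ETS core CCGGAAG was present in 16 (22.5%, against 9.93%), and the YY1 core AAGATGGC in 10 (14.1%, against 3.19%). By complex, the NRF1 core was found in 5 of 37 windows for complex I, 2 of 5 for complex III, 1 of 13 for complex IV and 3 of 15 for complex V. The ETS core was found in 5 of 37, 2 of 5, 3 of 13 and 6 of 15 windows of the same complexes in that order. The YY1 core was found in 7 windows of complex I and 3 of complex V, and in 0 of complexes III and IV. A match is only a run of letters and was not tested as a binding site.

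Windows are shown for Cox6b2, the gene that passed the test, for its ubiquitous counterpart Cox6b1, for Uqcr10, whose samples with PKM1 all lay above those with PKM2, and for Cycs, as an example with the NRF1 core. Capitals mark a motif core, and Cox6b2 and Uqcr10 held none of the cores. The Cycs match covers bases 191 to 198 of its window. The Cox6b1 match covers bases 223 to 229 and reads CTTCCGG, the ETS core on the other strand. All 4 genes are transcribed from the minus strand, and the sequences run 5′ to 3′ along the gene.
Cox6b2 (chr7:4753045-4753344, minus strand): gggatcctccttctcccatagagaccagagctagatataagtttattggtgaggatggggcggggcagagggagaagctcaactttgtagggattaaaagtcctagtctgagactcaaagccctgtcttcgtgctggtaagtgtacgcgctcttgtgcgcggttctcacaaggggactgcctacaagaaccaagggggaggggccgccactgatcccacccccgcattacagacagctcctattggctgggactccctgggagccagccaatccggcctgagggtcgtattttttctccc
Cox6b1 (chr7:30626065-30626364, minus strand): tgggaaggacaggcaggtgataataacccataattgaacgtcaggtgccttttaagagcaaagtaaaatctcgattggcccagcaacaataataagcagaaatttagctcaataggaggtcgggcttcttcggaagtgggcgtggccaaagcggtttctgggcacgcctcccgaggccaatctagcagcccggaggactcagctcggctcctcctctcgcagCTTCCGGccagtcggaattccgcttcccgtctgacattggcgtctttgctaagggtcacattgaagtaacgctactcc
Uqcr10 (chr11:4704295-4704594, minus strand): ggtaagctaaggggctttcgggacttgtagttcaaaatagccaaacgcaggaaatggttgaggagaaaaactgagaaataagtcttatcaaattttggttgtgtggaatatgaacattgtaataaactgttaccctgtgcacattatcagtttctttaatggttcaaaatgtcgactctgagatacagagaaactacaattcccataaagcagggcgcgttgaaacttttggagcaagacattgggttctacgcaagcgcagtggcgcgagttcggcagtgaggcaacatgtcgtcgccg
Cycs (chr6:50566520-50566819, minus strand): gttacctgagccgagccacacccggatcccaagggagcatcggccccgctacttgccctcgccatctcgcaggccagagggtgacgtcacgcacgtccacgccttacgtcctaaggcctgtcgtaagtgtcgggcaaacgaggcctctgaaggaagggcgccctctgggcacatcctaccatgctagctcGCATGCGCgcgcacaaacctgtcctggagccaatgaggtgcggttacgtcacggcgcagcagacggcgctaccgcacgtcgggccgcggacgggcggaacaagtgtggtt

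Cox6b2 was the single gene of the 87 that passed the adjusted threshold in any comparison of the models fitted to all 8 samples. It encodes the testis isoform of subunit 6B, a complex IV subunit that faces the intermembrane space. Its values were 8.65 and 8.57 in line A with PKM1, against 7.74 and 7.81 in line A with PKM2. In line B they were 8.78 and 8.31 with PKM1, against 7.97 and 8.17 with PKM2. All 4 samples with PKM1 lay above all 4 with PKM2. The rise was 1.57-fold over both lines (log2 fold change 0.65, SE 0.11, 95% interval 0.40 to 0.905, adjusted p = 0.024 in limma, n = 8 samples).

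The change of Cox6b2 was 0.83 in line A (adjusted p = 0.063) and 0.47 in line B (adjusted p = 0.75), and the difference between these changes did not pass (line B minus line A -0.36, SE 0.21, adjusted p = 0.9998 in limma). The call over both lines was lost when any 1 of the line A samples was left out, line A PKM1 replicate 1 or 2 or line A PKM2 replicate 1 or 2, with changes of 0.599 to 0.63 and adjusted p-values of 0.106 to 0.126. It was kept when any 1 of the line B samples was left out. Cox6b1, the ubiquitous 6B isoform, was at 12.80 and 12.80 in line A with PKM1, against 12.69 and 12.77 with PKM2, and at 12.78 and 12.71 in line B with PKM1, against 12.64 and 12.66 with PKM2. Its change of 0.09 did not pass (adjusted p = 0.73). The genes beside Cox6b2 on chromosome 7 did not pass either, with -0.01 for Kmt5c and 0.00 for Fam71e2. Among 6 markers of male germ cells, 0 passed in limma and 0 had an unadjusted p under 0.05, with list medians of 5.60 and 5.51 in line A with PKM1, 5.43 and 5.50 in line A with PKM2, 5.25 and 5.47 in line B with PKM1, and 5.52 and 5.21 in line B with PKM2.

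**Figure D1:**
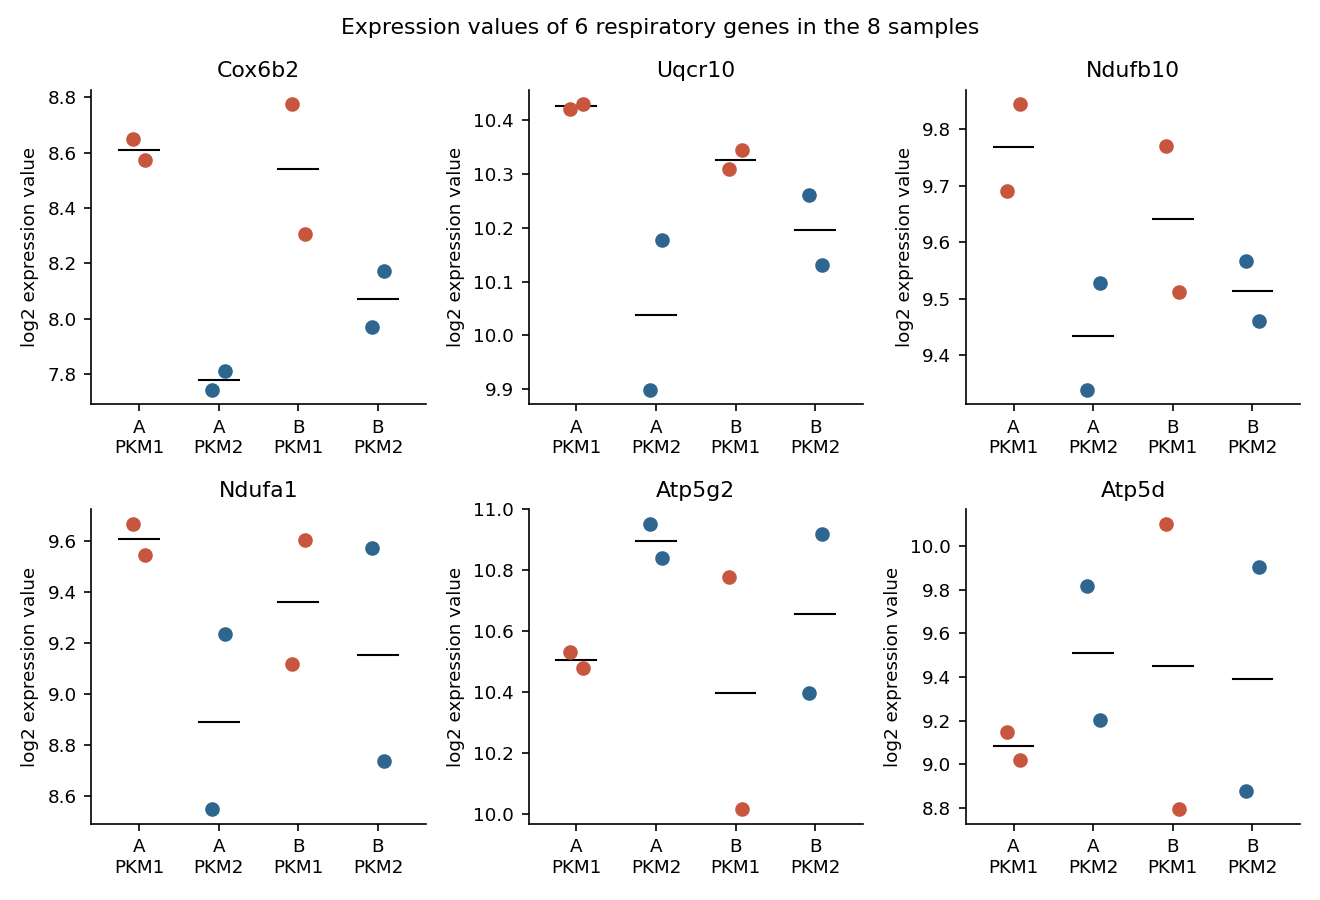
Log2 expression values (vertical axes, a separate scale per panel) of Cox6b2, Uqcr10, Ndufb10, Ndufa1, Atp5g2 and Atp5d in the 8 samples, by line and isoform on the horizontal axis. Points are samples, with PKM1 in red and PKM2 in blue, and bars are means of the 2 samples. For Cox6b2 the samples with PKM1 lie between 8.31 and 8.78, above those with PKM2 in both lines, while for Atp5d the line B samples of each isoform span more than 1 log2 unit.

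Over both lines, 1 of the 87 genes rose and 0 fell, where 1.32% of all genes passed. At an unadjusted p under 0.05, 6 were higher and 0 lower, 6.90% of the 87 against 9.85% of all genes. That count moved with single samples. Like the all-gene count, it fell without line A PKM2 replicate 1, either line A PKM1 sample or line B PKM2 replicate 2. It was 11 with line A PKM2 replicate 2 left out, 24 with line B PKM2 replicate 1 and 19 with line B PKM1 replicate 1 left out, where 1630, 3144 and 2595 of the 19938 genes had such a p. The median change was 0.09, against -0.01 for all genes, and 66 of 87 changes were above 0, where 44.6% of all genes were. The 95% interval lay within -1 to 1 for 87 genes and within -0.5 to 0.5 for 77. Samples with PKM1 all lay above those with PKM2 for 2 of the 87, Cox6b2 and Uqcr10 (2.56% of all genes), and all below for 0 (2.74% of all genes).

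By complex, the median change over both lines was 0.09 for complexes I, III and IV and 0.05 for complex V. Within complex IV, the 11 ubiquitous subunits had a median of 0.12 and the 8 tissue or condition isoforms -0.07. Within complex V, F1 subunits had a median of -0.05, and Fo and stalk subunits 0.06.

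In line A, 0 of the 87 genes passed in limma, where 0.502% of all genes did, and 13 had an unadjusted p under 0.05, all higher (14.9%, against 8.10% of all genes). This count was 1 without line A PKM2 replicate 1, 3 and 2 without line A PKM1 replicate 1 and 2, and 25 without line A PKM2 replicate 2, where 793, 868, 880 and 1442 of the 19938 genes had such a p. The excess over all genes was thus absent without any of the first 3 of these samples. The median change was 0.11, against -0.02 for all genes, and 71 of 87 changes were above 0 (81.6%, against 44.6% of all genes). Both samples with PKM1 lay above both with PKM2 for 47 genes (21.3% of all genes) and below for 10 (26.2% of all genes). Complex I accounted for 27 of the 47 and 0 of the 10.

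In line B, 0 passed in limma, where 0.0201% of all genes did, and 1 had an unadjusted p under 0.05, Cox6b2 (1.15%, against 4.83% of all genes). That count rose without line B PKM2 replicate 1 or either line B PKM1 sample, and the count over all genes rose there too. The median was 0.02, against -0.005 for all genes, and 51 of 87 changes were above 0 (58.6%, against 48.2% of all genes). Samples did not overlap for 8 genes above (12.0% of all genes) and 6 below (12.9% of all genes). The difference between the lines' changes passed for 0 of the 87, as for 0.0% of all genes. An unadjusted p under 0.05 was found for 1, the complex I core gene Ndufs3 (1.15%, against 2.83% of all genes). That count fell or rose with the sample left out. It rose without line A PKM2 replicate 2, line B PKM2 replicate 2 or either line B PKM1 sample. The count over all genes rose too without these line B samples, and hardly moved without line A PKM2 replicate 2. The median difference without line A PKM2 replicate 2 was -0.21. The change was larger in line A than in line B for 63 of the 87 (72.4%, against 48.9% of all genes). Without line A PKM2 replicate 1 it was larger in line A for 51 of the 87 (58.6%, against 51.4% of all genes), and the median difference was -0.03, against -0.13 with all samples.

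**Figure D2:**
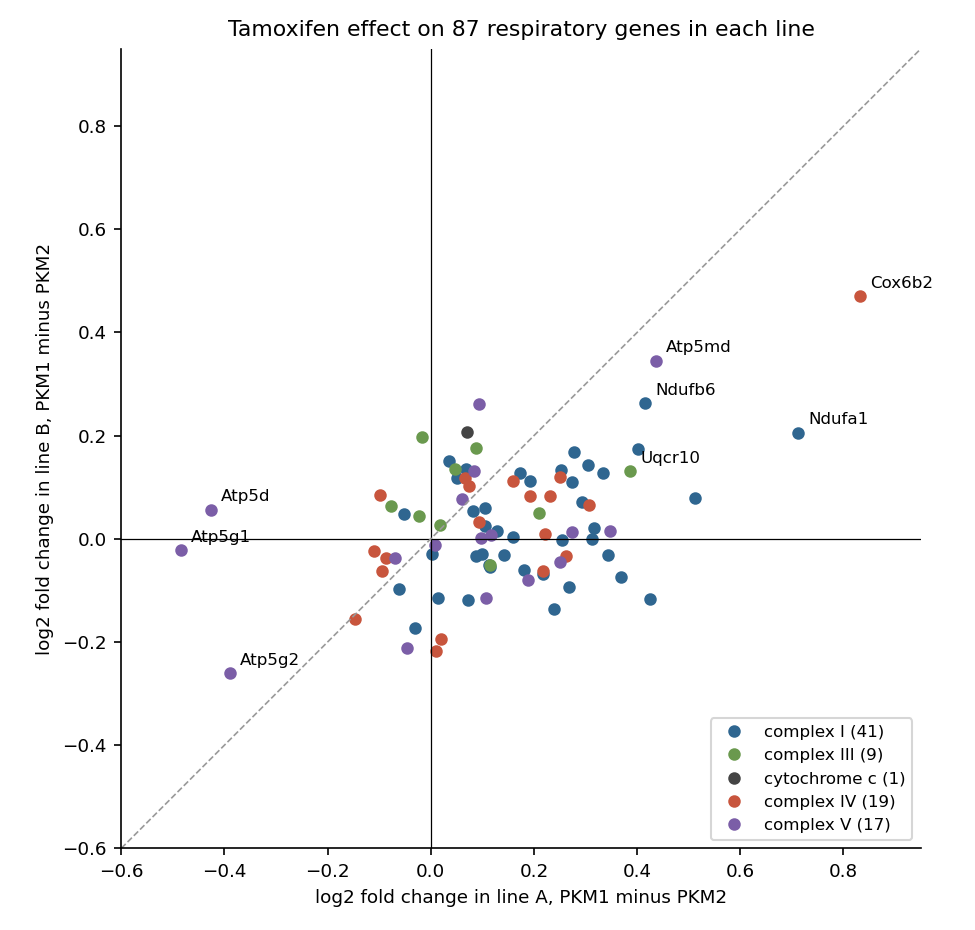
Log2 fold change, PKM1 minus PKM2, in line A (horizontal axis) and line B (vertical axis) for the 87 genes, coloured by complex, with a dashed line of equal change. 45 genes lie above 0 in both lines, 26 above 0 in line A and below in line B, 6 the other way, and 10 below 0 in both. Cox6b2 lies at 0.83 and 0.47.

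The samples within groups were unequal for these genes, and this touches every median above. Each gene's deviation from its own mean over the 8 samples was taken, and the median over the 87 genes was 0.08 in both line A samples with PKM1, against -0.12 and 0.03 in line A with PKM2. In line B the medians were 0.00 and 0.00 with PKM1, against 0.02 and -0.10 with PKM2. Line A PKM2 replicate 1 and line B PKM2 replicate 2 were thus low, and line A PKM2 replicate 1 had the lowest of the 8 values for 34 of the 87 genes (39.1%, against 10.9% of all genes). Line A PKM2 replicate 1 lay below its partner for 66 of the 87 (75.9%, against 45.2% of all genes). Line B PKM2 replicate 2 was lowest for 18 of the 87 (20.7%, against 13.5% of all genes). Line B PKM1 replicate 2, with a median of 0.00, was lowest for 21 (24.1%, against 14.4% of all genes).

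Without line A PKM2 replicate 1, the median change in line A was 0.06, and without line A PKM2 replicate 2 it was 0.20. Over both lines the median was 0.04 without line A PKM2 replicate 1. For complex I in line A it was 0.09 without that sample, against 0.18 with all samples. For complex V it was 0.0015 in line A and -0.01 over both lines without that sample, so the direction of the complex V median over both lines rested on it. In line B the median over the 87 genes was 0.08 when PKM2 replicate 1 was left out. It was -0.02 when PKM2 replicate 2, and -0.0027 when PKM1 replicate 1, was left out, so its direction rested on single samples. The line B medians of complexes I and V turned below 0 without the same samples, that of complex III without PKM1 replicate 1 (-0.0035), and that of complex IV without PKM1 replicate 2 (-0.0004). Whether these samples differ in RNA quality or culture was not tested.

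**Figure D3:**
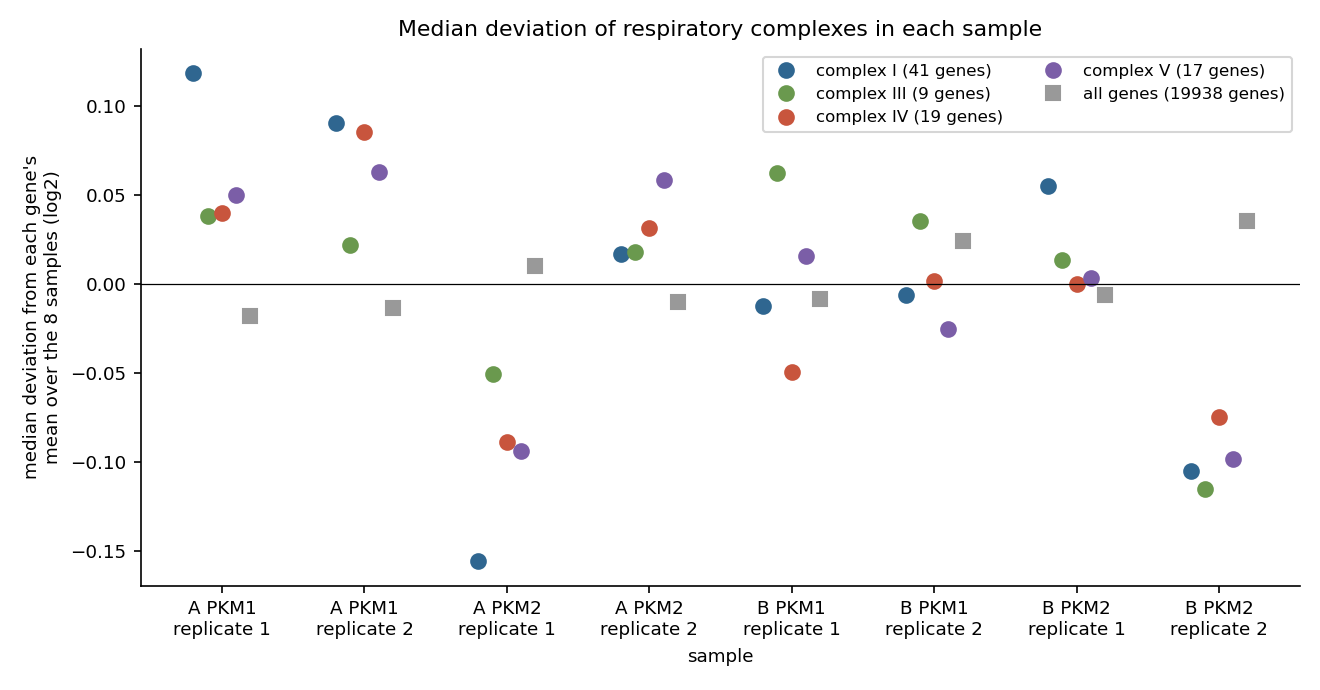
Median over the genes of a complex of each gene's deviation from its mean over the 8 samples (vertical axis, log2), for each sample (horizontal axis). Circles are complexes and grey squares are all 19938 genes. The medians of complexes I, III, IV and V lie below 0 in line A PKM2 replicate 1 (complex I -0.16) and in line B PKM2 replicate 2 (complex I -0.11).

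**Figure D4:**
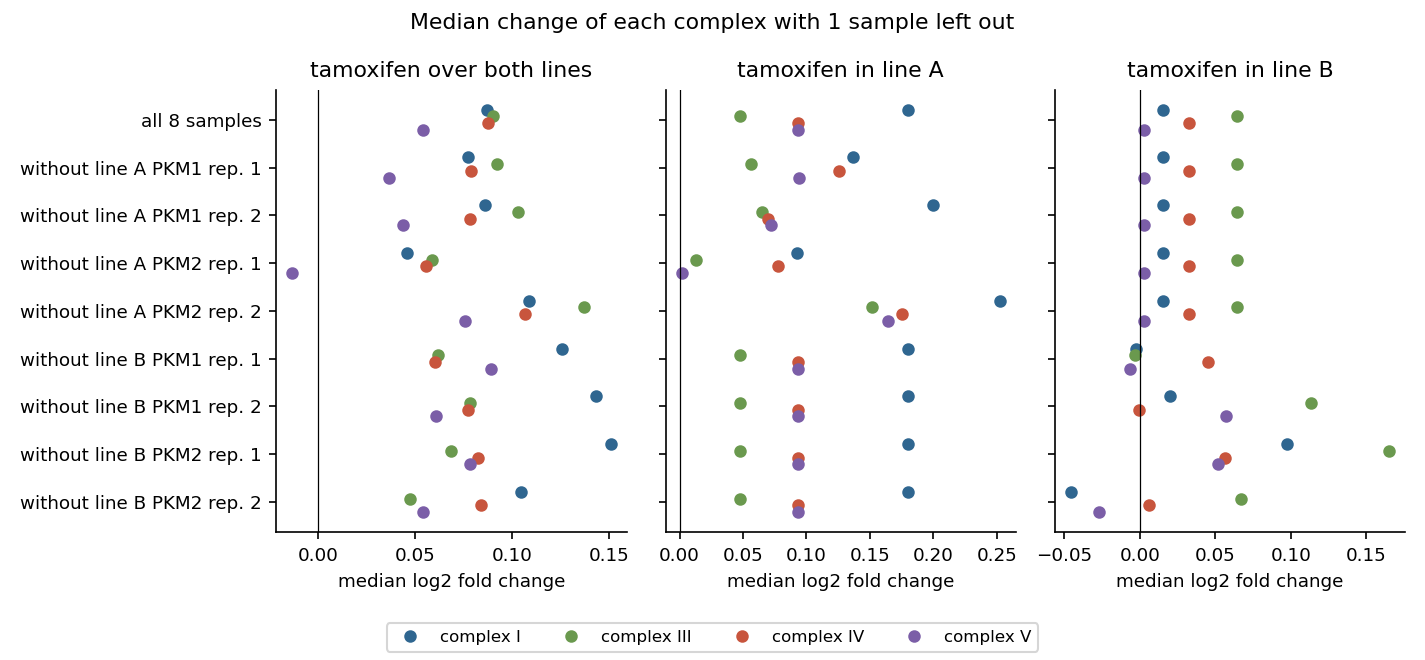
Median log2 fold change, PKM1 minus PKM2, of complexes I, III, IV and V (horizontal axes) with all 8 samples and with each sample left out (vertical axis), with 1 panel for both lines together and 1 for each line. Leaving out a sample of the other line leaves a within-line median as it was. Complex I in line A lies at 0.18 with all samples and at 0.09 without line A PKM2 replicate 1.

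Complex I had 0 genes past the adjusted threshold in limma over both lines, and 3 of 41 had an unadjusted p under 0.05, the accessory subunits Ndufb9, Ndufb10 and Ndufb6 of the membrane arm. Ndufb10 was at 9.69 and 9.84 in line A with PKM1, against 9.34 and 9.53 with PKM2, and at 9.77 and 9.51 in line B with PKM1, against 9.57 and 9.46 with PKM2. The line A samples did not overlap and the line B samples did. Its change over both lines was 0.23 (SE 0.09, adjusted p = 0.37). Ndufb9 had a change of 0.22 (adjusted p = 0.371) and Ndufb6 of 0.34 (adjusted p = 0.39). Ndufb6 was at 10.50 and 10.57 in line A with PKM1, against 9.88 and 10.36 with PKM2, and at 10.31 and 10.61 in line B with PKM1, against 10.44 and 9.96 with PKM2, so that its low values were those of the low samples named above.

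The 6 measured core subunits, conserved parts of the NADH and quinone-binding arm, had a median of 0.04 over both lines. Ndufv1, which binds NADH and FMN, changed by 0.03 (95% interval -0.28 to 0.34), and the iron-sulfur subunits Ndufs1 and Ndufv2 had values of 0.06 and 0.15. Ndufs7 and Ndufs8, the iron-sulfur subunits near the quinone site, had -0.10 and -0.08. Ndufs3, which joins the arm to that site, was at 10.28 and 10.23 in line A with PKM1, against 9.89 and 10.08 with PKM2, and at 10.19 and 9.96 in line B with PKM1, against 10.17 and 10.16 with PKM2. The Ndufs3 changes, 0.27 for line A and -0.09 for line B, differed by -0.36 (SE 0.16, unadjusted p = 0.047, adjusted p = 0.9998 in limma), which did not pass.

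The 28 accessory subunits had a median of 0.23 in line A, with 28 of 28 values above 0, where 44.6% of all genes were, and of 0.01 in line B, with 15 above 0. Without line A PKM2 replicate 1 the line A median was 0.10, with 25 of 28 above 0, and Ndufa12, Ndufb8 and Ndufc1, named after their values were seen, were not. Largest in line A were Ndufa1, at 0.71 (adjusted p = 0.575), and Ndufb5, at 0.51 (adjusted p = 0.568), both named after their values were seen. Ndufa1 was at 9.67 and 9.54 in line A with PKM1, against 8.55 and 9.24 with PKM2, and at 9.12 and 9.60 in line B with PKM1, against 9.57 and 8.74 with PKM2. The line A samples did not overlap, but both low values with PKM2 were those of the low samples named above, and the line B samples overlapped. Ndufc2, Ndufa2 and Ndufa8, other accessory subunits, had 0.31, 0.42 and 0.22 in line A and 0.00, -0.12 and -0.07 in line B. None of these passed. The 7 assembly factors, which help build complex I without staying in it, had a median of 0.15 over both lines, and the largest value was 0.22 for Ndufaf1 (adjusted p = 0.59). Ndufaf7 and Ndufaf2 had 0.18 and 0.19, Ndufaf6 0.15, and Ndufaf5 0.03.

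For complex III, 0 of 9 genes passed in limma over both lines, and Uqcr10 had an unadjusted p under 0.05. This small accessory subunit was at 10.42 and 10.43 in line A with PKM1, against 9.90 and 10.18 with PKM2, and at 10.31 and 10.34 in line B with PKM1, against 10.26 and 10.13 with PKM2. Groups did not overlap in either line. The change was 0.26 (SE 0.08, 95% interval 0.07 to 0.45, adjusted p = 0.274). The redox subunits had smaller values: Uqcrfs1, the Rieske iron-sulfur protein, changed by 0.09 (95% interval -0.09 to 0.27) and Cyc1, cytochrome c1, by -0.01 (-0.20 to 0.18). Uqcrh, the hinge protein, and Uqcrb, a small accessory subunit, both had 0.13, and Uqcr11 had 0.09.

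Cycs, the somatic cytochrome c that carries electrons between complexes III and IV, was at 11.70 and 11.77 in line A with PKM1, against 11.58 and 11.74 with PKM2. In line B it was at 11.74 and 11.95 with PKM1, against 11.81 and 11.46 with PKM2. The samples overlapped in both lines, and the change was 0.14 (SE 0.09, adjusted p = 0.72). A dim probe set of Cycs gave 0.36 (adjusted p = 0.22).

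In complex IV, Cox5b was the other gene beside Cox6b2 with an unadjusted p under 0.05. This ubiquitous subunit was at 11.20 and 11.19 in line A with PKM1, against 10.79 and 11.11 with PKM2, and at 11.04 and 11.13 in line B with PKM1, against 11.01 and 10.91 with PKM2. No sample with PKM1 lay below its own line's samples with PKM2, but the change of 0.185 did not pass (SE 0.08, adjusted p = 0.49). Of the ubiquitous subunits, 10 of 11 had a value above 0 over both lines. Ndufa4 had 0.16, Cox7a2 0.14, Cox4i1 and Cox7a2l 0.12 and 0.11, Cox7b 0.09 and Cox8a 0.06, and Cox6a1 had -0.01. Cox7a2l is a factor of supercomplex assembly.

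Of the tissue and condition isoforms other than Cox6b2, Cox7a1 had a value above 0 over both lines and the rest lay below 0, and none passed. The heart and skeletal muscle isoforms Cox6a2, Cox7a1 and Cox8b had -0.08, 0.08 and -0.10, and the remaining testis isoforms Cox7b2 and Cox8c had -0.07 and -0.06. Cox4i2, the lung and low-oxygen isoform of subunit 4, was at 7.13 and 7.14 in line A with PKM1, against 7.40 and 7.16 with PKM2, and at 7.21 and 7.26 in line B with PKM1, against 7.28 and 7.51 with PKM2. It was lower with PKM1 in each line, by 0.15 over both, but did not pass (adjusted p = 0.59). Ndufa4l2, the hypoxia-induced relative of Ndufa4, had -0.09. No detection calls were used.

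**Figure D5:**
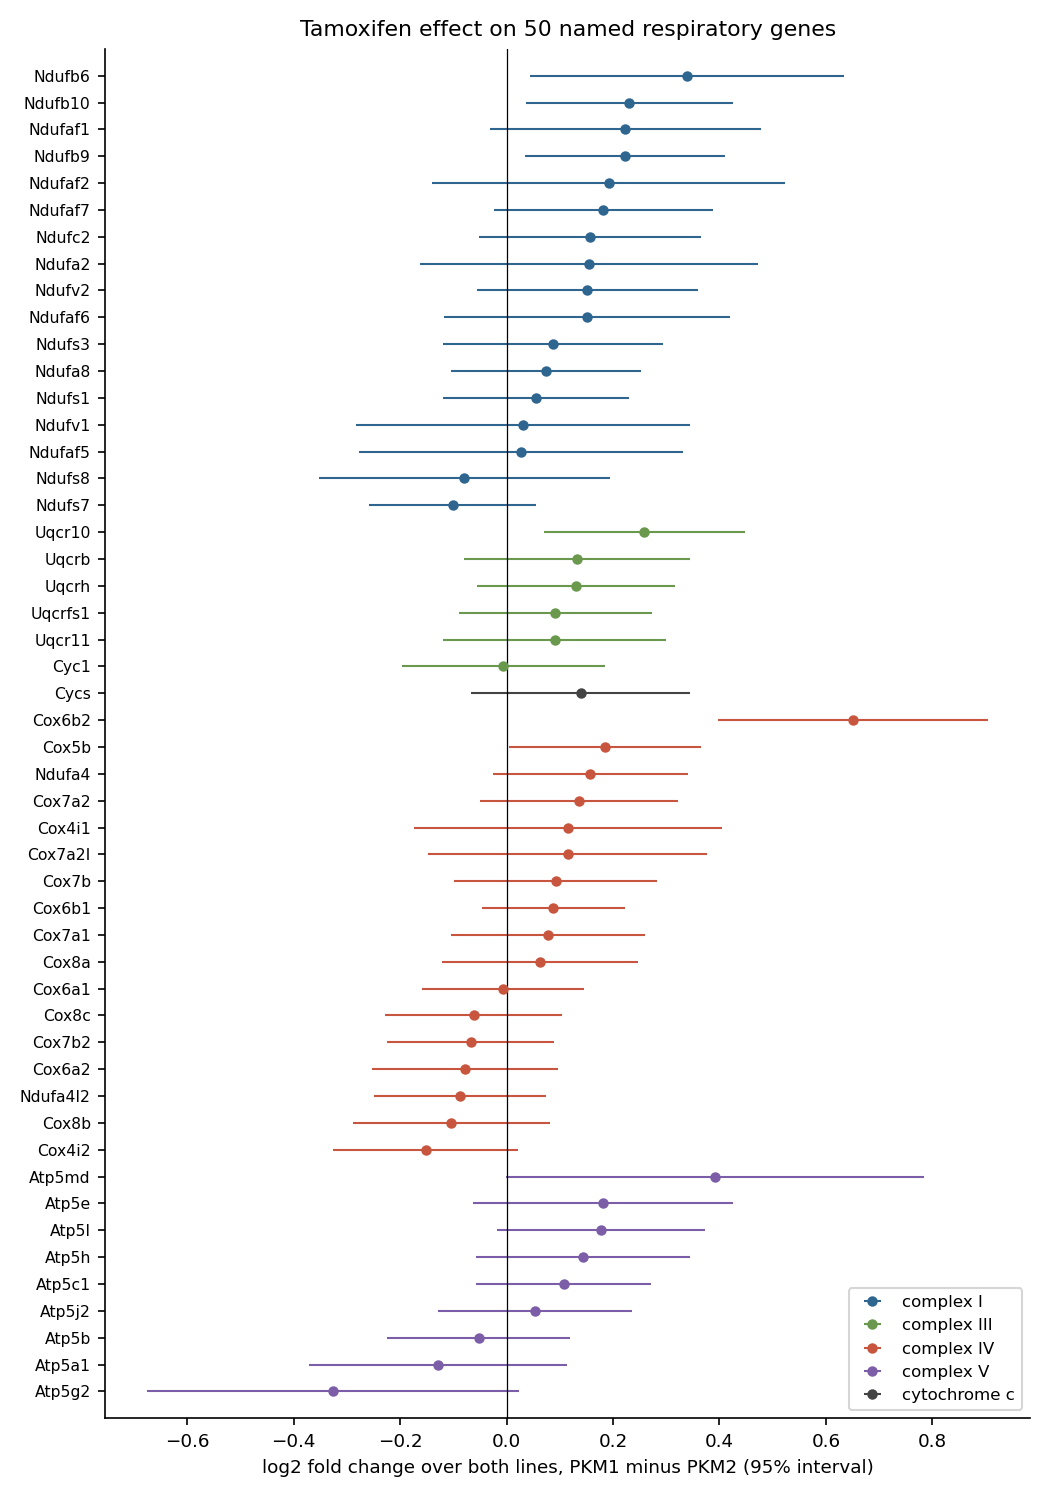
Log2 fold change over both lines, PKM1 minus PKM2 (horizontal axis), for the 50 genes named by a rule, ordered by complex and size (vertical axis). Points are estimates and bars 95% intervals. The interval of Cox6b2, 0.40 to 0.905, lies further from 0 than any of the others.

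Complex V had 0 of 17 genes past the threshold in limma over both lines, and 0 with an unadjusted p under 0.05. The catalytic F1 subunits were close to level: Atp5b, the beta subunit with the catalytic sites, changed by -0.05 (95% interval -0.23 to 0.12), Atp5a1, the alpha subunit, by -0.13, and Atp5c1, the gamma subunit of the rotor, by 0.11. Atp5e, the epsilon subunit, had 0.35 in line A (adjusted p = 0.58) and 0.01 in line B. Among the Fo and stalk subunits, Atp5md, a small subunit, had 0.39 (SE 0.18, adjusted p = 0.51), Atp5l, subunit g, 0.18, Atp5h, subunit d of the stalk, 0.14, and Atp5j2, subunit f, 0.05.

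Atp5g2, one of the genes for ring subunit c, had the lowest value of the 87 over both lines, -0.33 (SE 0.16, adjusted p = 0.55). It was at 10.53 and 10.48 in line A with PKM1, against 10.95 and 10.84 with PKM2, and at 10.78 and 10.02 in line B with PKM1, against 10.40 and 10.92 with PKM2. The line A samples did not overlap, and the line B samples did. In line A its change of -0.39 did not pass in the model of all 8 samples (adjusted p = 0.79 in limma). When the 4 line A samples were fitted alone, Atp5g2 passed there (adjusted p = 0.049 in limma). That fit called 543 of the 19938 genes, against 100 in the model of all 8 samples. Atp5g1, which encodes the same ring subunit and was named after its values were seen, had -0.48 in line A (adjusted p = 0.717) and -0.02 in line B. Atp5g3, the remaining subunit c gene, had 0.05 over both lines.

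Line B held a further pattern between samples. For 29 of the 87 genes, replicate 1 with PKM1 and replicate 2 with PKM2 were the higher ones of their pairs, and for 41 it was replicate 2 with PKM1 and replicate 1 with PKM2 (33.3% and 47.1%, against 30.8% and 31.1% of all genes). In 17 genes the same replicate number was higher in both pairs (19.5%, against 38.1% of all genes). The numbers only name the samples and do not pair them across groups. In 5 genes both pairs differed by more than 0.5, and all 5 differed in opposite ways, as did 407 of 412 such genes in all.

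The widest of these was Atp5d, the delta subunit of F1, at 10.10 and 8.79 in line B with PKM1, against 8.88 and 9.91 with PKM2. In line A it was at 9.15 and 9.02 with PKM1, against 9.82 and 9.20 with PKM2. The others were Atp5g1, Atp5g2, Ndufa11 and Ndufs6, the last of them in the opposite sense, and the group was named after its values were seen. Collagen gene Col1a1, a fibroblast marker, had a like order of samples: 10.20 and 9.00 in line B with PKM1, against 9.26 and 10.30 with PKM2, and 9.44 and 9.27 in line A with PKM1, against 10.40 and 9.75 with PKM2. Of the other measured fibroblast markers, Col1a2, Pdgfra, Pdgfrb and Vim had the same order in line B. Lum and Dcn had the opposite order there, and Col3a1 and Thy1 had neither. The part of collagen-rich cells or of sample handling in the pattern was not tested.

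Between the lines, 0 of the 87 genes passed in limma without tamoxifen (0.326% of all genes) or with it (0.532% of all genes). An unadjusted p under 0.05 was found for 0 in either comparison (5.20% and 6.72% of all genes). Without tamoxifen this count rose when line A PKM2 replicate 2 or any line B sample was left out. With tamoxifen it rose when either line B PKM1 or either line A PKM2 sample was left out. In these fits the count over all genes rose where the sample was of line B, and fell where it was of line A. The median of line B minus line A was 0.04 without tamoxifen and -0.08 with it, against 0.01 and 0.02 for all genes. With line A PKM2 replicate 1 left out the median without tamoxifen was -0.05, and with line B PKM2 replicate 1 left out it was -0.01, so its direction rested on these samples. Complexes I, III, IV and V each turned direction there without at least 1 sample. Complex I had medians of 0.08 without and -0.11 with tamoxifen, and complex V of -0.02 and -0.10.

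Related genes outside the naming rule did not pass in limma in any comparison. The 4 complex II genes, all nuclear, had a median of 0.01 over both lines, with 0 under an unadjusted p of 0.05, and Sdhb and Sdha had 0.12 and -0.09. Of the mitochondrially encoded subunits 2 were measured. COX2, the copper subunit of complex IV, was at 12.80 and 12.71 in line A with PKM1, against 13.08 and 13.04 with PKM2, and at 13.00 and 12.91 in line B with PKM1, against 12.72 and 12.44 with PKM2. It was lower with PKM1 in line A and higher in line B, with no overlap in either line, and the difference between these changes was 0.68 (unadjusted p = 0.0022, adjusted p = 0.9998 in limma), which did not pass. ND3, a complex I subunit, had -0.17 in line A and 0.29 in line B.

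For assembly factors and regulators, the counts that follow stand beside 9.85% of all genes with an unadjusted p under 0.05. Over both lines, 2 of 10 further complex I factors had an unadjusted p under 0.05, Tmem126b at 0.28 and Lyrm2 at 0.35, and 0 of 6 for complex III. For complex IV it was 4 of 18, among them Cox14 at 0.28 and Cox10, a heme enzyme, at -0.22, and for ATP synthase assembly 1 of 5, Tmem70 at 0.29. Of 13 regulators of mitochondrial biogenesis 2 did, Hcfc1 at -0.38 and Pprc1 at -0.17. The factors whose motifs were searched had -0.11 (Nrf1), 0.03 (Gabpa) and 0.07 (Yy1), and the coactivator gene Ppargc1a had 0.21. It was 1 of 12 for coenzyme Q synthesis, 1 of 7 for nucleotide and phosphate carriers, with Vdac2 at 0.19, and 0 of 5 for the HIF-induced isoform switch, which shares Cox4i2 and Ndufa4l2 with the 87.

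Markers were checked against the label. Of 10 fibroblast markers 9 were measured, and 2 rose over both lines, Lum (1.33) and Dcn (0.88), both matrix proteoglycans. In all 4 had an unadjusted p under 0.05, the others being Col1a2 (-0.30) and Thy1 (0.15), the list median was -0.02, and Col1a1, Pdgfrb and Pdgfra had -0.45, -0.30 and -0.23. The list had median levels of 9.79 and 9.93 in line A with PKM1, against 10.16 and 9.75 with PKM2, and of 10.20 and 9.06 in line B with PKM1, against 9.92 and 10.30 with PKM2. Lists for muscle (13 genes), adipocytes (7), macrophages and blood (8) and epithelium (8) had 0 past the threshold over both lines, and at an unadjusted p under 0.05 they had 0, 0, 2 and 0. The macrophage list had medians of 6.89 and 7.18 in line B with PKM1 and 6.77 and 6.67 in line B with PKM2, against 6.54 and 6.43 in line A with PKM1 and 6.65 and 6.56 in line A with PKM2. Its median of line B minus line A was 0.37 without tamoxifen and 0.57 with it. In each of these comparisons 1 of the 8 genes passed in limma (0.326% and 0.532% of all genes). At an unadjusted p under 0.05 there were 4 and 7 (5.20% and 6.72% of all genes). The lysozyme gene Lyz2 of this list was higher in line B, by 2.14 without tamoxifen and 1.53 with it. These are bulk samples, in which fewer cells of a type and less RNA per cell cannot be told apart. The part of other cell types in the differences between lines was not tested.

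Probe sets of one gene did not always match. The 87 genes had 114 probe sets, 18 genes having more than 1, and the choice of probe set changed the sign of the change over both lines for Ndufa11, Ndufc1 and Atp5pb. None of these passed with any of their probe sets. Cox6b2 had a single probe set, so taking the mean of probe sets left its estimate as it was. The several probe sets of Atp5g2, of Atp5l and of Atp5md gave like changes over both lines, -0.35 to -0.31, 0.18 to 0.21 and 0.39 to 0.40, and signal from near-identical gene copies cannot be told apart here.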

How the data were processed

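Affymetrix array intensities were normalized by RMA in Expression Console, per the labels, and the deposited table holds log2 values made by the authors; its version and the build are not given in the sources used here. Quantile normalization in RMA equalizes the arrays, and RMA compresses differences of dim probe sets. Values ran from 2.61 to 14.12, and array medians from 7.17 to 7.24. Of 35556 probe sets, 21789 had 1 symbol in the platform annotation and 1621 several. The latter were left out, 6 of them with a symbol that fits the rule. All 87 symbols matched the RefSeq table.

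Tests used lmFit and eBayes of limma (version 3.58.1, in R 4.3.3) and p-values adjusted by Benjamini-Hochberg for 19938 genes and a threshold of 0.05. The change over both lines came from a model of line and tamoxifen, and all other comparisons from a model of 4 group means. The code of the fits was run on simulated data with planted changes and independent noise. Such data lack the unequal samples described above, so the run says nothing about them. The genes and lists were chosen with earlier results of these data known. The genes named with values were those that passed; per complex, the 3 with the smallest p over both lines and 2 per other comparison; isoform groups; the redox and catalytic core; the highest and lowest by mean; and 2 per related list. Complex and role came from a hand-written table. Alternatives were a second quantile normalization, a shift to equal medians, dropping the 30% dimmest genes, trend and robust eBayes, array weights, the mean of probe sets, each sample left out, and other models. The number of arrays limits the precision. The labels number the samples in series, and the replicate numbers used here follow that order within each group.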

Additional observations from a re-analysis of the deposited data

How the results depend on the processing

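Cox6b2 kept its direction over both lines in all alternatives, and its call in all but those without 1 line A sample. In line A it passed with array weights (adjusted p = 0.0032), with the 4 line A samples alone (0.0015) and without either line B sample with PKM1 (0.0175), at a change of 0.83 in each. Over all genes, array weights gave 983 calls over both lines, 525 in line A and 1 in line B, and no term for the line gave 132 over both lines. The 4 samples of a comparison alone gave 543 in line A, 2 in line B, 15 between lines without tamoxifen and 20 with it. Of the 87 genes, array weights called 1 and the 4 samples alone 2 in line A, Cox6b2 and Atp5g2. With each sample left out, calls ranged from 58 to 353 over both lines, 0 to 143 in line A, 0 to 6 in line B, and 4 to 79 and 0 to 102 between the lines without and with tamoxifen. Calls among the 87 ranged from 0 to 1 over both lines and from 0 to 1 in line A. The median change of the 87 then ranged from 0.0623 to 0.1971 in line A, from -0.2139 to -0.0348 for the difference between the lines' changes, and from -0.046 to 0.1196 between the lines without tamoxifen. Among 4488 alternatives for the 50 named genes, 240 had another sign, all for changes that did not pass, and 17 passed. Many of the 4488 could not change a sign. Dropping the dimmest genes, trend and robust eBayes, and the other models leave an estimate as it was. So does leaving out a sample of the other line for a within-line change. Groups of 2 limit what could pass. No paired analysis was made because the labels pair no samples across groups. A wide interval leaves a change possible where no call was made.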
